A study of Homo sapiens with 6 samples.

Results

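Collagen chain genes were examined in MCF10.AT1, a preneoplastic human breast epithelial line of the MCF10A panel, and in MCF10.AT1-R, the fluvastatin-resistant line derived from it. They were taken as every gene symbol of the array table built as COL, a type number, A and a chain number, with COL17A1 left out. This gave 43 of the 81496 gene symbols in the table, and each gene was read from the probe set with the highest mean over 5 arrays. The table assigned 1 probe set to 40 of the 43 genes. COL1A1 and COL1A2 had 2 each and COL6A2 had 3.

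The MCF10.AT1 cells were untreated and are labelled fluvastatin sensitive, while MCF10.AT1-R was selected by exposing MCF10.AT1 to fluvastatin, an inhibitor of HMG-CoA reductase, at doses raised from 1 and 5 up to 20 µM. The growth label is the same for all samples (MCF10.AT1 media), the methods describe DMEM:F12 with horse serum, CaCl2, EGF, hydrocortisone and insulin, and the treatment label, which names fluvastatin, is also the same for all, so that whether MCF10.AT1-R was in the drug at harvest is not given in the sources used here. MCF10.AT1-R is 1 derived line, so its arrays replicate cultures of that line and not the selection. Total RNA, extracted with Trizol, was measured on Clariom D arrays, which hold short oligonucleotide probes for coding and noncoding transcripts, in 3 biological replicates per line. The comparison used arrays A01 and A02 of MCF10.AT1 and B02, B03 and B04 of MCF10.AT1-R. A03, an MCF10.AT1 array that the methods removed as an outlier, is given apart. Each line also has its own letter in the array names, and an effect of how the arrays were run cannot be told apart from the line.

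As background, collagens are trimers of alpha chains in which glycine recurs at every triplet, and each gene here encodes 1 such chain. The fibrillar types assemble into the banded fibrils of connective tissue, type IV forms the network of the basement membrane on which breast epithelium rests, type VII anchors that membrane to the stroma, type VI forms beaded filaments, and the fibril-associated types decorate the surface of fibrils. Chains are hydroxylated and folded in the endoplasmic reticulum, exported as procollagen, trimmed outside the cell and crosslinked by lysyl oxidases. In the breast, fibroblasts are the main source of the fibrillar types, and epithelial cells make chains of the basement membrane.

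All values are deposited log2 RMA values, so a difference of 1 is a doubling. RMA corrects the background, sets the arrays to a common distribution and summarises the probes of a set. Probe sets differ in how strongly they bind, so no gene's level is compared with another's here. A level was instead set against the 612 negative control probe sets of the same array. Their 95th percentile was 3.14 on A01, 3.03 on A02, 2.88 on B02, 2.96 on B03, 2.95 on B04 and 3.15 on A03, and a gene is called above the negative controls in a line when it exceeded that value on every array of the line.

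The starts of 31 of the 43 genes have an entry in the RefSeq promoter table of build GRCh38.p14, which gives 250 bases before and 50 bases after each start. The genome build behind the deposited values is not given in the sources used here, so these positions describe the genes and not the probes. The windows of the 2 chain genes whose difference between the lines had an interval clear of 0, COL6A3 (chr2:237414115-237414414, minus strand) and COL12A1 (chr6:75206004-75206303, minus strand), are shown 5′ to 3′. The window of COL4A2 (chr13:110307034-110307333, plus strand) is shown because the type IV genes are arranged in divergent pairs, with 127 bases between the starts of COL4A1 and COL4A2, so that 226 bases of it also lie in the window of COL4A1. Capitals mark the GC box, GGGCGG, or its reverse complement, and the CCAAT box.
COL6A3: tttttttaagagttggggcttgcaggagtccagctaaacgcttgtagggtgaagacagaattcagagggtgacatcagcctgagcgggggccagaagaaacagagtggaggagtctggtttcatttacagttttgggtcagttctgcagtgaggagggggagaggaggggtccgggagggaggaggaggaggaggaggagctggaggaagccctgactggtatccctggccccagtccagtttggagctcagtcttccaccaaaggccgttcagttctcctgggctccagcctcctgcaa
COL12A1: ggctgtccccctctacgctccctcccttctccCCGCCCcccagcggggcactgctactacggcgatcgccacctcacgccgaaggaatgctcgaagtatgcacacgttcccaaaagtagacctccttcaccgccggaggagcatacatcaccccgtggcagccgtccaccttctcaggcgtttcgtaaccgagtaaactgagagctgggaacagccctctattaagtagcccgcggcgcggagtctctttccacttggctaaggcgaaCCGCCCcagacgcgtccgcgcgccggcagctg
COL4A2: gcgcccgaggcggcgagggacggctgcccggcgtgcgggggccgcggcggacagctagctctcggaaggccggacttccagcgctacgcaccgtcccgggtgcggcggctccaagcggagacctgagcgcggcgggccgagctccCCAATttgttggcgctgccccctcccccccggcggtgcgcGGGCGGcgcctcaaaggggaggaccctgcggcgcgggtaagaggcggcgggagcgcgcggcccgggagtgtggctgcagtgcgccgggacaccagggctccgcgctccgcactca
The COL6A3 window, with 56.3% G and C, held none of the motifs searched. The COL12A1 window, with 63.3%, held 2 GC boxes, and the COL4A2 window, with 77.7%, held 1 GC box and 1 CCAAT box. The TATA box, TATAAA, was searched with the other motifs on both strands, and none of the 3 contains another. It was found in 12.9% of the collagen windows and in 12.0% of all 27305 windows, the GC box in 58.1% and 44.6%, and the CCAAT box in 29.0% and 35.7%. The starts of COL4A4 and COL4A3 lie 419 bases apart and those of COL4A6 and COL4A5 lie 380 bases apart, also in opposite directions.

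On the arrays themselves, correlations over transcript probe sets ran from 0.967 to 0.977 among the 5 arrays and from 0.780 to 0.795 between A03 and the others. The hybridisation controls averaged 10.35 to 11.33 on the 5 arrays and 5.99 on A03, and the brightest GC-content background probe set reached 4.15 to 4.54 on the 5 arrays and 6.91 on A03. Of 8 epithelial markers (CDH1, EPCAM, KRT5, KRT14, KRT17, TP63, KRT8 and KRT18), all 8 were above the negative controls in both lines and had higher values on every MCF10.AT1-R array than on either MCF10.AT1 array, by 0.78 to 4.08. Of all symbols, 12.8% were higher without overlap. Of the 8 markers, 6 passed FDR 5% in limma, and EPCAM and KRT18 did not. Over all tested probe sets, 0.758% passed in the higher direction. In limma without filters, CDH1 and KRT8 did not pass either (limma adjusted p = 0.0616 and 0.126). When limma's variance was allowed to follow the mean level, all 8 passed.

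Nearly all collagen chain genes above the negative controls in at least 1 line had close values in both lines. Of the 43 genes, 30 (69.8%) were above the negative controls in at least 1 line, against 33.4% of all symbols, and 24 (55.8%) were above them in both lines, against 29% of all symbols. Each line had 27 such genes. All symbols include noncoding transcripts, and the share among coding genes alone was not counted. A stricter comparison, with the brightest of the 23 GC-content background probe sets of each array, left 10 genes above it on all 5 arrays: COL1A1, COL1A2, COL2A1, COL4A2, COL7A1, COL8A1, COL12A1, COL15A1, COL20A1 and COL23A1. Of all 81496 symbols, 12653 were above it on all 5 arrays. At this limit the 43 chain genes therefore stood less apart from all symbols than at the negative controls. With COL1A1 read from its other, dimmer probe set, 9 chain genes were left. The 13 genes above the negative controls in neither line were COL4A3, COL5A1, COL6A5, COL6A6, COL8A2, COL10A1, COL11A1, COL13A1, COL14A1, COL19A1, COL21A1, COL22A1 and COL24A1. Close to that limit were COL4A4, which passed it on the MCF10.AT1-R arrays alone at 3.02 to 3.08, and COL13A1, which missed it in both lines with values of 2.72 to 3.52. COL4A1 and COL9A1 were also close. Both passed it on all arrays but B03, where they read 2.94 and 2.80 against a limit of 2.96.

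**Figure D1:**
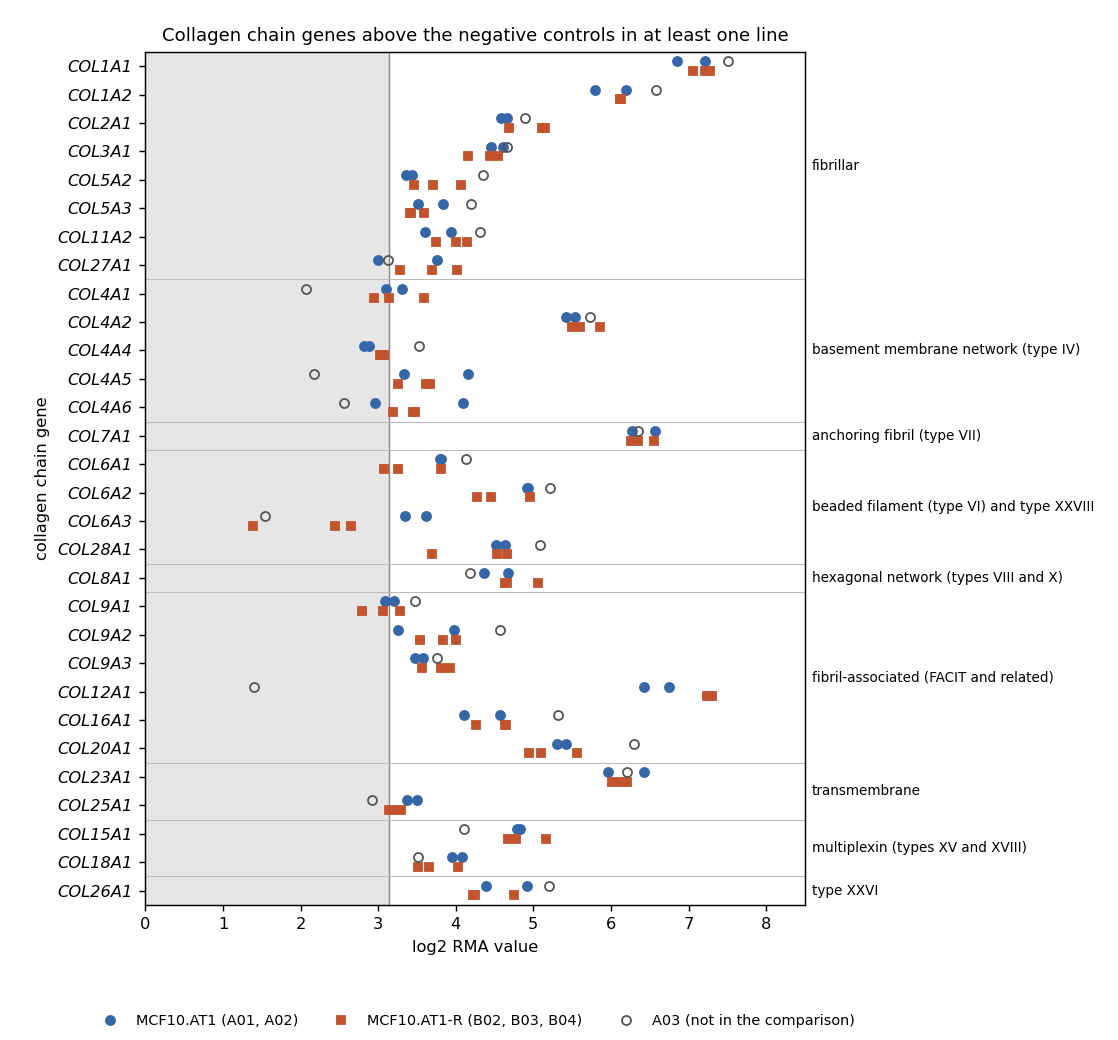
Log2 RMA value (x axis) of the 30 collagen chain genes above the negative controls in at least 1 line (y axis, grouped by collagen class), with blue circles for MCF10.AT1 arrays A01 and A02, orange squares for MCF10.AT1-R arrays B02, B03 and B04, and open circles for A03. The grey area ends at 3.14, the highest of the 5 arrays' 95th percentiles of the negative controls (COL4A4 passed the lower limits of its own MCF10.AT1-R arrays), and the lines overlap for most genes while COL6A3 is lower and COL12A1 higher in MCF10.AT1-R.

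The question was then which chains differed between the resistant line and its parent. Filters on low and on invariant values left 51457 transcript probe sets, fitted with limma, and 29 of the 43 chain genes were among them. Of the other 14, 5 were removed for a low mean and 9 only for a small spread over the arrays. Exactly 1 chain gene passed FDR 5%, COL6A3, which was lower in MCF10.AT1-R. That is 3.45% of the chain genes tested, where 1.2% of all tested probe sets passed in either direction (620 of 51457), 0.447% in the lower and 0.758% in the higher direction, and 1.52% when 1 probe set per symbol is counted. A single call is too few to set the chain genes apart from that background. Another fit took all 135750 transcript probe sets without filters and so gave a value for every chain gene. In it 0 chain genes passed FDR 5%, beside 0.13% of all probe sets. Unadjusted, 2 of the 43 had a p under 0.05 in limma, COL6A3 and COL12A1, the genes with an interval clear of 0. The share of all symbols at that unadjusted limit was not counted, so these 2 are not set apart from a background.

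Over the 43 genes, the log2 difference (MCF10.AT1-R minus MCF10.AT1) was above 0 for 23 and below 0 for 19, and 0.00 for COL6A6. The median difference was 0.04, beside 0.005 over all symbols, and the median size of the difference was 0.20, beside 0.18. The difference was smaller than 0.5 for 40 genes, including genes above the negative controls in neither line, where a difference was not measurable. Among the 30 genes above the negative controls in at least 1 line, 15 were above 0 and 15 below, the median was -0.01, 28 were smaller than 0.5, and the lines were separate in 6 (20%). The 95% intervals, taken from limma without filters, lay within 1 log2 unit on both sides of 0 for 40 of the 43 genes. Among the 30 genes above the negative controls in at least 1 line they did so for 28. The genes with wider intervals were COL6A3, COL12A1 and COL11A1. For 7 genes (16.3%) the ranges of the lines were separate, beside 24.7% of all symbols. These genes are too few to set the chain genes apart from that background. The higher ones were COL2A1, COL4A4, COL5A2, COL11A1 and COL12A1, where 12.8% of all symbols were higher without overlap. The lower ones were COL6A3 and COL25A1, beside 11.9%.

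**Figure D2:**
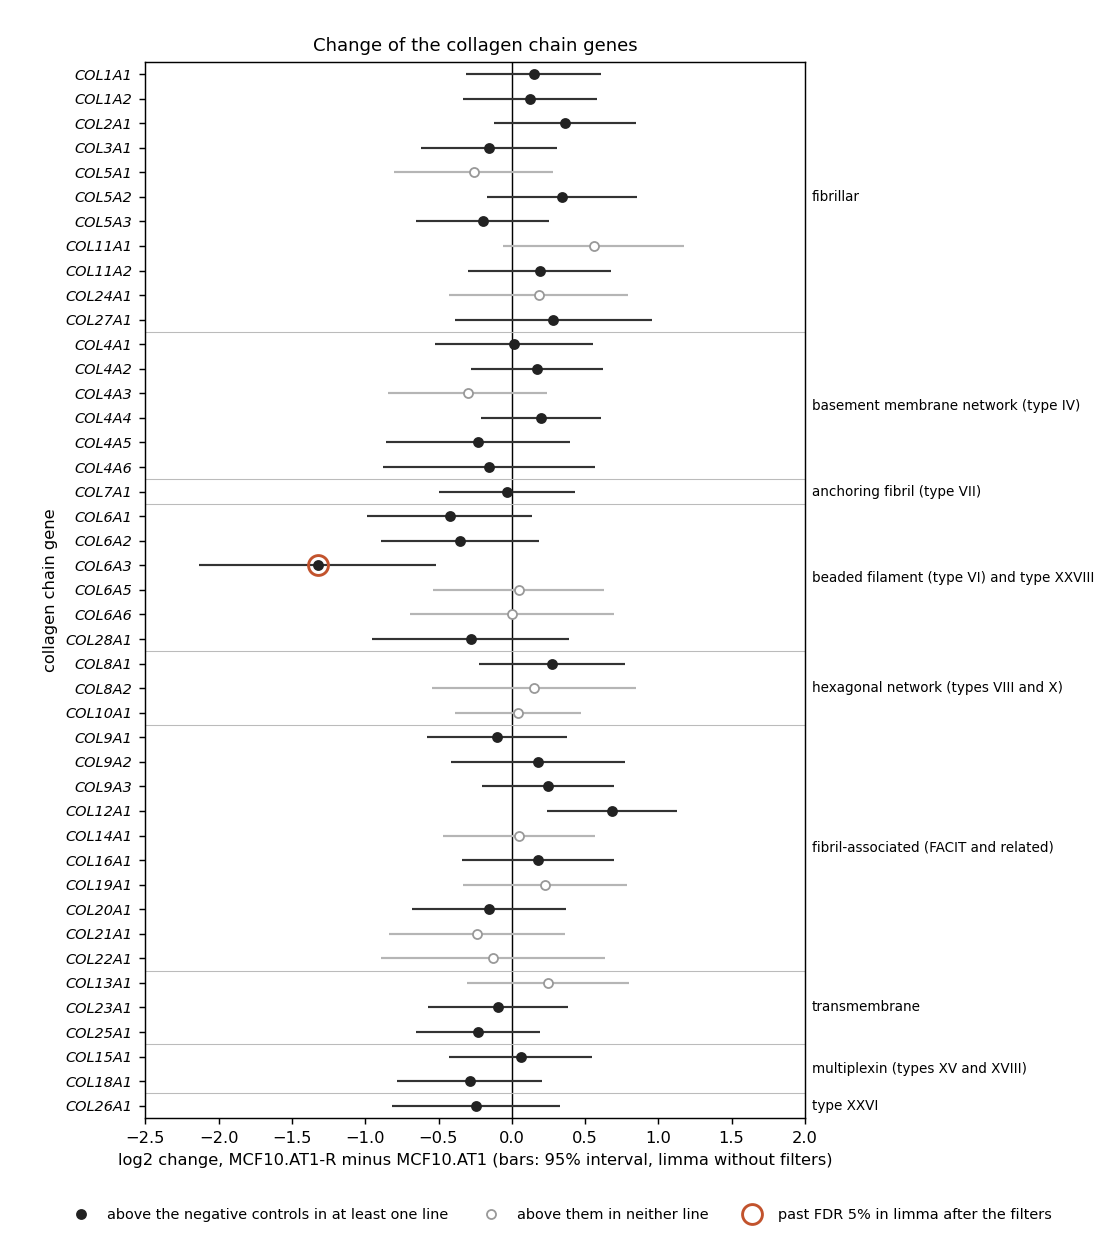
Log2 difference (x axis, MCF10.AT1-R minus MCF10.AT1) of all 43 collagen chain genes (y axis, grouped by class), with bars for the 95% interval from limma without filters, filled points for genes above the negative controls in at least 1 line and a ring for FDR 5% in limma after the filters. COL6A3 is the ringed gene at -1.32, the interval of COL12A1 runs from 0.24 to 1.12, and the intervals of all other genes include 0.

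Type VI collagen, a beaded filament whose classical trimer joins the chains of COL6A1, COL6A2 and COL6A3, held the gene that passed the test. COL6A3, which encodes the longest chain of that trimer, read 3.61 and 3.35 in MCF10.AT1 and 2.44, 1.39 and 2.65 in MCF10.AT1-R. Both MCF10.AT1 arrays were above the negative controls and all 3 MCF10.AT1-R arrays were within them, so the lines did not overlap. The fitted difference was -1.32 (SE 0.31, adjusted p = 0.00348, limma with Benjamini-Hochberg adjustment). Because the resistant line lies within the negative controls, its level has only an upper bound. With values below the 95th percentile of the controls raised to it, the difference was -0.55, or 1.47-fold, with an adjusted p of 0.204 in limma. A gene at that limit on every array reads -0.15 by construction. The 1.47-fold is thus an estimate and not a firm lower bound. The SE comes from the SD of 0.34 that limma shared over all tested probe sets, while the MCF10.AT1-R arrays of COL6A3 had an SD of 0.67. With a spread estimated from the unfiltered table the SE was 0.35, the interval ran from -2.13 to -0.52 and the adjusted p in limma was 0.487. The call also ended without A01 (limma adjusted p = 0.266), without A02 (limma adjusted p = 0.0674), without B03 (limma adjusted p = 0.18) and with A03 added to MCF10.AT1 (limma adjusted p = 0.777). In total RNA of a culture, fewer cells that express a gene and less RNA per cell cannot be told apart.

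COL6A1 and COL6A2, whose products pair with that of COL6A3, did not pass the test. COL6A1 read 3.80 on both MCF10.AT1 arrays and 3.81, 3.26 and 3.07 in MCF10.AT1-R, a difference of -0.42 with an interval from -0.99 to 0.14. COL6A2 read 4.91 and 4.93 in MCF10.AT1 and 4.95, 4.28 and 4.46 in MCF10.AT1-R, a difference of -0.35 with an interval from -0.89 to 0.18. On these probe sets of both genes B02 was at the level of the parental line and B03 and B04 were below it. The other COL6A2 probe sets differed by -0.08 and -0.14, with overlapping arrays. The former read 2.94 and 4.32 in MCF10.AT1 and 3.28, 3.66 and 3.71 in MCF10.AT1-R, without that order of arrays. The latter carries a number on the side of the opposite strand. COL28A1, a relative of type VI, read 4.63 and 4.51 in MCF10.AT1 and 4.53, 4.66 and 3.69 in MCF10.AT1-R, a difference of -0.28 with B04 alone below both parental arrays. COL6A5 and COL6A6, alternative partners of the type VI trimer, stayed within the negative controls on every array of both lines. The median difference of these 6 genes, COL6A5 and COL6A6 included, was -0.32. The medians of the type IV, fibril-associated and fibrillar genes were -0.07, 0.11 and 0.18.

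The fibril-associated collagens, which lie on the surface of fibrils or are related to those that do, held the second gene with an interval clear of 0. COL12A1, which encodes the chain of type XII, read 6.74 and 6.42 in MCF10.AT1 and 7.26, 7.31 and 7.23 in MCF10.AT1-R. Every resistant array was above both parental arrays. The difference of 0.68 is 1.61-fold, with an interval from 0.24 to 1.12. It did not pass FDR 5% in the limma fit with the shared SD (SE 0.31, adjusted p = 0.488). With A03, where COL12A1 read 1.40, added to MCF10.AT1, the difference was 2.41 and did not pass either (limma adjusted p = 0.777). When limma's variance was allowed to follow the mean level, COL12A1 passed (limma adjusted p = 0.00665), in a fit that called 2.68% of all tested probe sets (3.47% with 1 probe set per symbol) and 2 chain genes, COL12A1 and COL6A3.

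Among the other fibril-associated chains, COL9A1, COL9A2 and COL9A3, the chains of type IX, differed by -0.10, 0.18 and 0.25, and their arrays overlapped. COL9A1 was close to the negative controls, at 3.20 and 3.09 in MCF10.AT1 and 3.06, 2.80 and 3.28 in MCF10.AT1-R. COL16A1 read 4.11 and 4.57 in MCF10.AT1 and 4.26, 4.63 and 4.65 in MCF10.AT1-R, and COL20A1 read 5.31 and 5.42 against 5.10, 4.95 and 5.56. Neither separated the lines, with intervals from -0.34 to 0.69 and from -0.68 to 0.37. COL14A1, COL19A1, COL21A1 and COL22A1 were not above the negative controls in either line.

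The fibrillar chains, which form the bulk of connective tissue, had 8 of 11 genes above the negative controls in at least 1 line and no call. COL1A1, a chain of type I, read 6.85 and 7.21 in MCF10.AT1 and 7.21, 7.27 and 7.06 in MCF10.AT1-R, a difference of 0.15 with an interval from -0.31 to 0.61. COL1A2, the other chain of type I, read 5.79 and 6.19 in MCF10.AT1 and 6.12, 6.13 and 6.12 in MCF10.AT1-R, a difference of 0.13 with an interval from -0.33 to 0.58. The type I chains therefore differed by less than 1 log2 unit in either direction, and their arrays overlapped. The second COL1A1 probe set read 3.96 and 3.97 in MCF10.AT1 and 4.33, 3.94 and 4.33 in MCF10.AT1-R, a difference of 0.24. The COL1A1 probe sets carry numbers on opposite sides of the numbering of chromosome 17, which in 93.8% of 15230 genes with a known strand matched the strand of the gene, and COL1A1 lies on the minus strand, the side of the dimmer probe set. The brighter values therefore cannot be assigned to the COL1A1 transcript with certainty, and the arrays of the lines overlapped on both probe sets.

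COL2A1, the chain of cartilage collagen, read 4.66 and 4.58 in MCF10.AT1 and 5.11, 5.15 and 4.69 in MCF10.AT1-R, without overlap, and its difference of 0.36 had an interval from -0.12 to 0.85. COL5A2, a chain of type V, read 3.44 and 3.36 in MCF10.AT1 and 3.70, 4.06 and 3.46 in MCF10.AT1-R, also without overlap, with a difference of 0.34 and an interval from -0.17 to 0.85. The gap between the nearest arrays of the lines was small in both genes. COL3A1, the chain of type III, read 4.46 and 4.61 against 4.44, 4.15 and 4.55, and COL5A3 differed by -0.20 with an interval from -0.65 to 0.26. COL11A2 differed by 0.19 and COL27A1 by 0.28, with overlapping arrays. COL11A1, a chain of type XI, did not overlap at 1.56 and 2.04 against 2.04, 2.25 and 2.79, but all of these values were within the negative controls. COL5A1 and COL24A1 were likewise within them.

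Of the 6 type IV genes, 5 were above the negative controls in at least 1 line and none passed the test. COL4A2, 1 of the major chains of the basement membrane, read 5.43 and 5.53 in MCF10.AT1 and 5.60, 5.50 and 5.85 in MCF10.AT1-R, a difference of 0.17 with an interval from -0.28 to 0.62. COL4A1, its partner in the trimer and its neighbour in the divergent pair, read 3.31 and 3.10 in MCF10.AT1 and 3.14, 2.94 and 3.59 in MCF10.AT1-R, a difference of 0.01 with an interval from -0.52 to 0.55. The pair thus showed no separation of the lines. COL4A5 read 4.16 and 3.33 against 3.61, 3.26 and 3.67, and COL4A6 read 2.96 and 4.10 against 3.19, 3.45 and 3.48. In both of these genes the MCF10.AT1 arrays differed from each other more than the line means did, with SDs of 0.59 and 0.80 (n = 2). COL4A4 read 2.81 and 2.88 against 3.04, 3.08 and 3.02, without overlap, at the limit of the negative controls, and its divergent partner COL4A3 was within them. COL7A1, which encodes the anchoring fibril chain, read 6.27 and 6.57 in MCF10.AT1 and 6.26, 6.56 and 6.34 in MCF10.AT1-R, with a difference of -0.03 and an interval from -0.49 to 0.43.

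The remaining classes held no call either. COL8A1, a chain of the hexagonal networks, read 4.36 and 4.67 in MCF10.AT1 and 4.67, 5.07 and 4.64 in MCF10.AT1-R. The multiplexins COL15A1 and COL18A1, whose C-terminal fragments are known as restin and endostatin, differed by 0.06 and -0.29. Of the membrane-spanning chains, COL23A1 read 5.96 and 6.42 against 6.09, 6.20 and 6.01, and COL25A1 read 3.37 and 3.50 against 3.30, 3.13 and 3.19. COL25A1 was lower without overlap, by -0.23 with an interval from -0.65 to 0.19, and the filter on invariant values had removed it. COL26A1 differed by -0.24 with an interval from -0.82 to 0.33.

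Fibroblasts being the usual source of many of these chains, 8 fibroblast markers (DCN, LUM, PDGFRA, PDGFRB, FAP, THY1, DPT and POSTN) were read beside them. Of these, 3 were above the negative controls in at least 1 line. DCN, the proteoglycan decorin, fell from 5.31 and 5.32 to 3.49, 2.76 and 3.25 (log2 difference -2.15, limma adjusted p = 3.88e-09), and POSTN, periostin, fell from 3.41 and 3.46 to 2.46, 1.49 and 2.27 (log2 difference -1.36, limma adjusted p = 0.00231). The resistant POSTN values were within the negative controls. With values raised to the controls' 95th percentile, the POSTN difference was -0.50, or 1.42-fold, where a gene at that limit on every array reads -0.15. FAP, a surface protease, rose from 7.92 and 8.03 to 9.10, 9.21 and 9.16 (log2 difference 1.18, limma adjusted p = 0.0175). Without filters DCN passed (limma adjusted p = 0.0191), and POSTN and FAP did not (limma adjusted p = 0.282 and 0.0884). LUM, PDGFRA, PDGFRB, THY1 and DPT were above the negative controls in neither line, the PDGFRA probe set carrying a number on the side of the opposite strand. The summed linear level of the list, which its brightest probe sets dominate, was 320.0 to 339.7 in MCF10.AT1 and 592.2 to 630.8 in MCF10.AT1-R. Without FAP it was 77.92 to 78.44 in MCF10.AT1 and 36.71 to 49.52 in MCF10.AT1-R. DCN was the brightest of the rest in MCF10.AT1. The direction of the sum thus depended on single genes, and it gives no direction for the list as a whole. The part of these markers in the lower COL6A3 values was not tested.

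**Figure D3:**
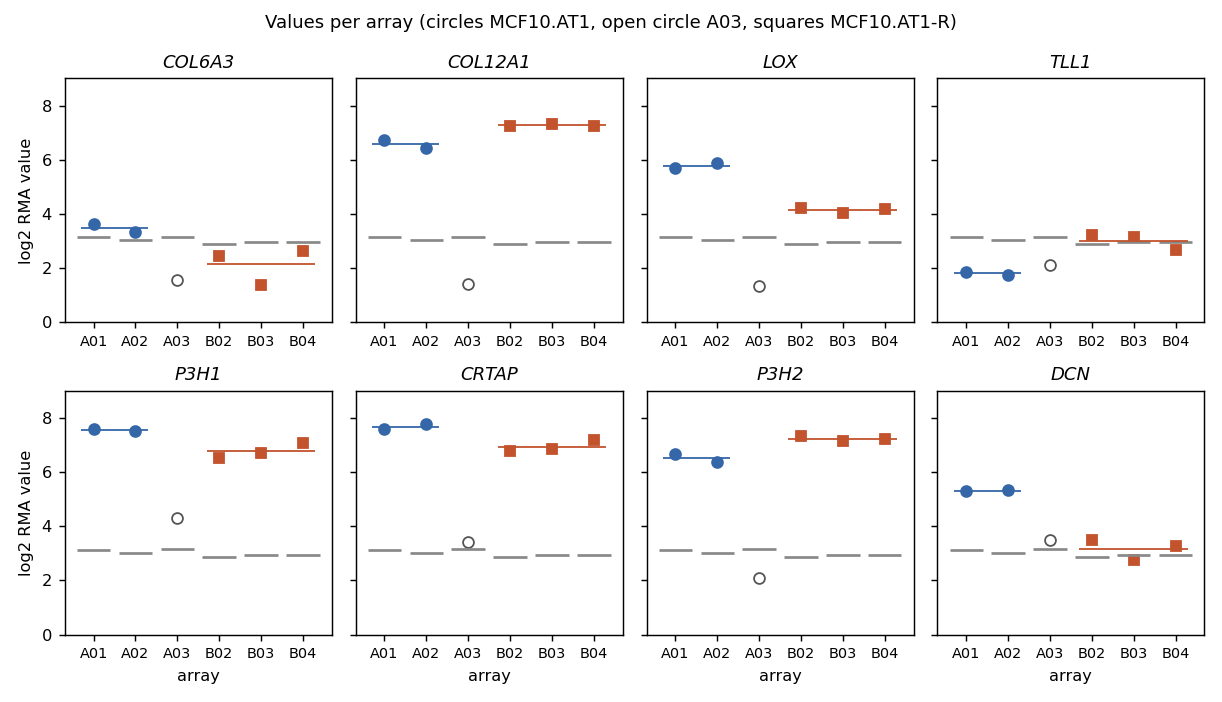
Log2 RMA value (y axis) on each array (x axis) for COL6A3, COL12A1, 5 genes that act on collagen and the fibroblast marker DCN, with coloured lines for the mean of each line's arrays in the comparison and grey bars for the 95th percentile of the negative controls on each array. COL6A3 enters the negative controls in MCF10.AT1-R, LOX falls from 5.70 and 5.86 to between 4.05 and 4.23, and COL12A1 lies between 7.23 and 7.31 in MCF10.AT1-R but at 1.40 on A03.

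Genes that modify, fold, export, trim, crosslink or bind collagen were read as the other part of the pathway. Of 44 such genes listed, 42 had a symbol in the table (not LOXL2 or ITGA1), and 30 of the 42 passed the filters. Past FDR 5% in limma were 1 lower and 1 higher gene, or 6.67% of those tested against 1.2% of all probe sets. These calls are too few to set the processing and receptor genes apart from that background. The lines were separate in 20 of the 42 (47.6%, with 24.7% among all symbols), 14 of them lower and 6 higher in MCF10.AT1-R. Among all symbols, 11.9% were lower and 12.8% higher without overlap. Above the negative controls in both lines were 66.7% of the 42 genes and 29% of all symbols, so these shares were not matched for level. The share among symbols of like level was not counted. Of the separate genes, SPARC and LAIR1 (lower) and ADAMTS2 and TLL1 (higher) were above the negative controls in neither line. The median difference was -0.11, and the median size of the difference 0.25, against 0.18 for all symbols.

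The lower gene was LOX, the lysyl oxidase that starts the crosslinking of collagen and elastin. It read 5.70 and 5.86 in MCF10.AT1 and 4.23, 4.05 and 4.17 in MCF10.AT1-R, with a gap of more than 1 log2 unit between the lines. The difference was -1.63, or 3.11-fold (SE 0.31, limma adjusted p = 4.43e-05), with an interval from -2.06 to -1.21. It also passed in the fit without filters (limma adjusted p = 0.02), and with A03 added to MCF10.AT1 the difference was -0.16 (limma adjusted p = 0.961). LOXL1, LOXL3 and LOXL4, its relatives, differed by -0.38, -0.27 and 0.35 and did not pass.

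The higher gene was TLL1, a protease of the BMP1 family that removes the C-propeptide of procollagen. It read 1.84 and 1.76 in MCF10.AT1 and 3.21, 3.16 and 2.67 in MCF10.AT1-R (log2 difference 1.21, limma adjusted p = 0.0127). Both MCF10.AT1 arrays and B04 were within the negative controls, and with values below their 95th percentile raised to it the difference was 0.03. The call ended without filters (limma adjusted p = 0.174) and without A01, A02 or B02 (limma adjusted p = 0.195, 0.32 and 0.0882), and with A03 added (limma adjusted p = 0.777). BMP1 itself read 4.42 and 4.88 against 4.75, 4.76 and 4.92, TLL2 was at -0.42 without overlap (limma adjusted p = 0.799), and PCOLCE2, an enhancer of this cleavage, was at -0.48 without overlap (limma adjusted p = 0.762). The TLL2 difference was -0.19 without A01 and -0.65 without A02, and that of PCOLCE2 was -0.31 and -0.64.

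The collagen prolyl 3-hydroxylases differed in opposite directions. P3H1 and CRTAP, which form a complex that hydroxylates a proline of the type I chains, read 7.60 and 7.51 against 6.54, 6.69 and 7.05, and 7.57 and 7.78 against 6.78, 6.86 and 7.19, respectively. Both were lower on every resistant array, by -0.80 (interval from -1.29 to -0.30) and by -0.73 (interval from -1.21 to -0.26). P3H2, which acts on other collagens including type IV, read 6.65 and 6.38 against 7.33, 7.14 and 7.21, a difference of 0.71 with an interval from 0.27 to 1.15. With A03 added to MCF10.AT1, the differences of P3H1, CRTAP and P3H2 were 0.29, 0.69 and 2.19 (limma adjusted p = 0.902, 0.824 and 0.777). None of the 3 passed in the fit with the shared SD (limma adjusted p = 0.312, 0.404 and 0.447), and all 3 passed when the variance followed the mean (limma adjusted p = 0.000396, 0.000905 and 0.00479). PPIB, the third member of the complex, read 8.24 and 8.26 against 8.20, 8.26 and 8.29. P3H4 was at -0.44 and P3H3 at 0.44, both without overlap and without a call (limma adjusted p = 0.789 and 0.79). The probe set of P3H3 carries a number on the side of the opposite strand.

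No gene of the remaining steps passed the test. MIA3, which loads procollagen into transport carriers, read 6.29 and 6.74 against 5.87, 6.03 and 5.85 (difference -0.60, limma adjusted p = 0.621). SERPINH1, the collagen chaperone HSP47, read 6.39 and 6.22 against 5.62, 5.82 and 6.40, and the lines overlapped. The lysyl hydroxylase genes PLOD1, PLOD2 and PLOD3 differed by -0.08, 0.15 and 0.01. Of the receptors, ITGB1 and ITGA2, which together form an integrin that binds collagen, differed by 0.24 and 0.15, DDR1, a collagen-binding receptor kinase, by 0.27, and MRC2, an endocytic collagen receptor, by -0.63 (limma adjusted p = 0.568). Among these, the arrays of MIA3, MRC2 and ITGB1 did not overlap. Without A01 and without A02, the MRC2 difference was -1.0 and -0.27 and that of MIA3 was -0.82 and -0.38.

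**Figure D4:**
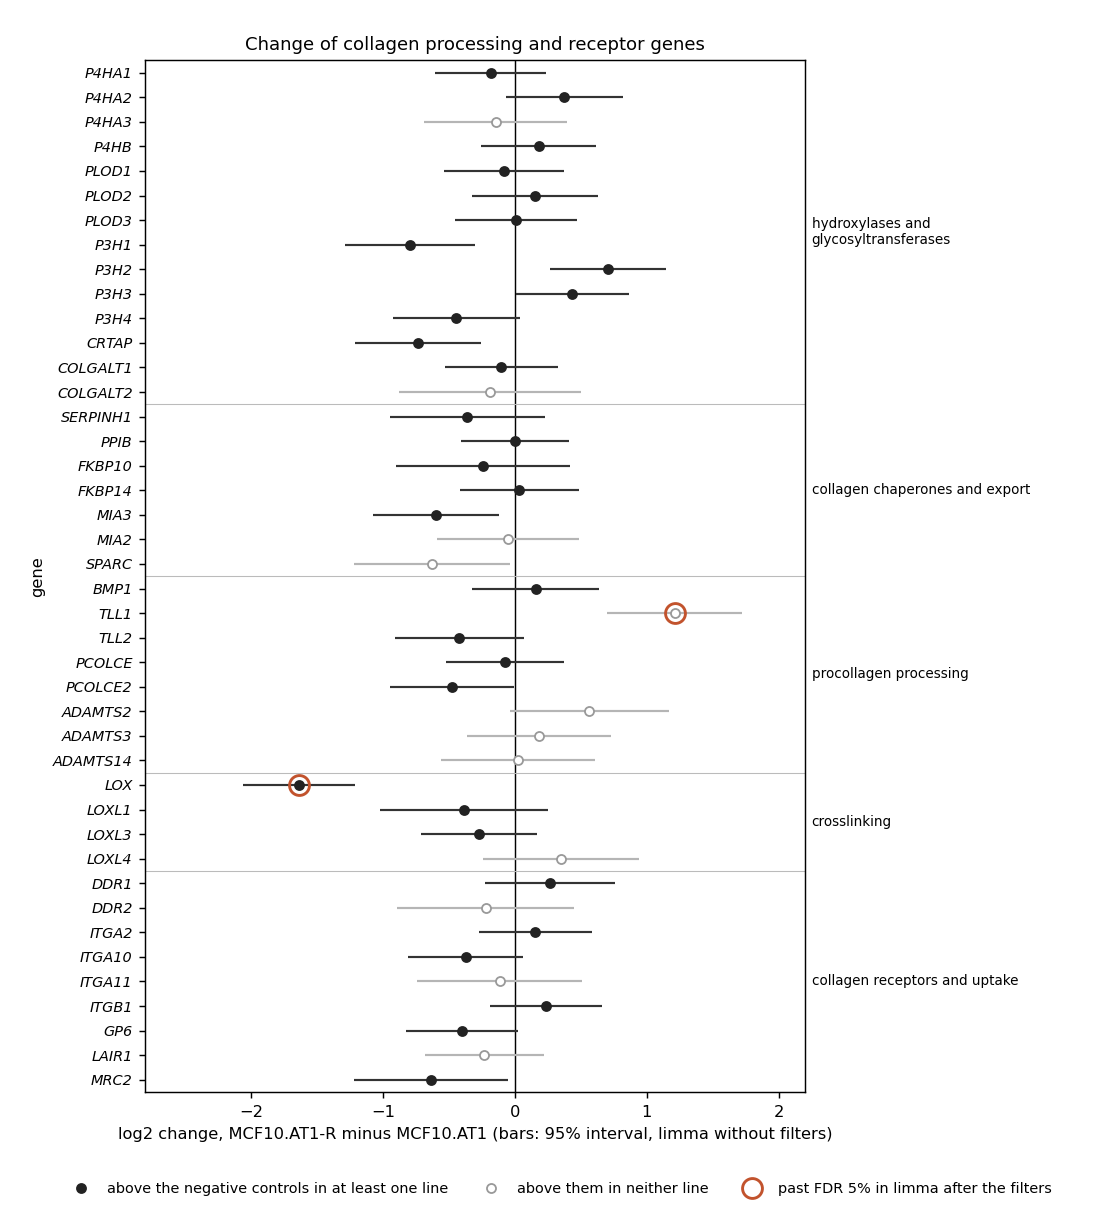
Log2 difference (x axis, MCF10.AT1-R minus MCF10.AT1) of 42 genes that process or bind collagen (y axis, grouped by role), with bars for the 95% interval from limma without filters, filled points for genes above the negative controls in at least 1 line and rings for FDR 5% in limma after the filters. LOX is ringed at -1.63 and TLL1 at 1.21, the latter an open point because it was above the negative controls in neither line.

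On A03, the array left out of the comparison, most chain genes were not lower than on the other arrays. Of the 24 chain genes above the negative controls in both lines, 13 were higher on A03 than on all 5 other arrays. Another 6 were within their range and 5 (20.8%) were lower than all of them. The median difference from the mean of the 5 was 0.30. Over the 23658 symbols above the negative controls on the 5 arrays it was 0.10. Of these symbols, 10525 were higher on A03 than on all 5 and 10115 (42.8%) were lower. COL1A1 read 7.51, COL1A2 6.59, COL20A1 6.30 and COL7A1 6.35. Just 1 of the 24 (4.17%) was lower by more than 2, COL12A1, which read 1.40 and differed from that mean by -5.59. By contrast, 16 of 28 processing and receptor genes above the negative controls in both lines (57.1%) and 27.7% of the 23658 such symbols overall were lower by more than 2. Among them, ITGB1 lay at -7.54, PPIB at -5.26 and LOX at -3.44.

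The contrast stood also among genes of higher level. With a mean above 5 on the other arrays, 1 of 7 chain genes, 14 of 18 processing and receptor genes (77.8%) and 51.2% of 11092 symbols were lower by more than 2 on A03 (1 of 6 chain genes with the dimmer COL1A1 probe set), where 7 of 8 epithelial markers were as well. Lowest among chain genes after COL12A1 were COL4A5 at -1.43, COL4A1 at -1.14 and COL6A3 at -1.14. As A03 also had dim hybridisation controls and bright background probe sets, with a brightest one at 6.91, these values stand beside each other, and the part of background signal in the chain gene values was not tested.

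**Figure D5:**
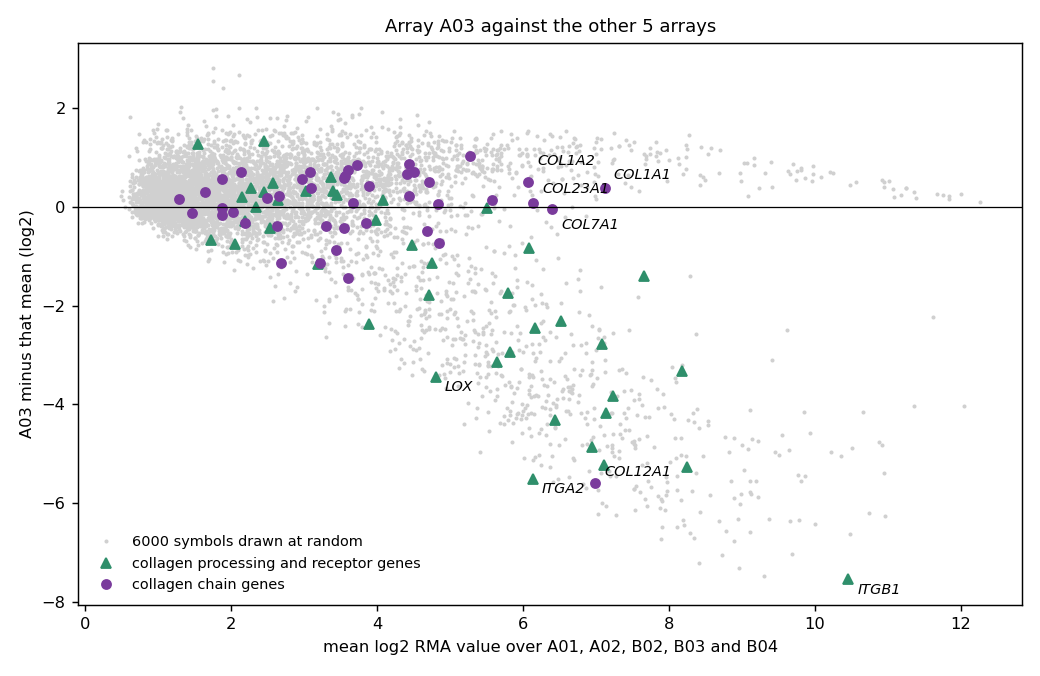
Difference between A03 and the mean of the other 5 arrays (y axis, log2) against that mean (x axis, log2 RMA value) for the collagen chain genes (purple circles), the processing and receptor genes (green triangles) and symbols drawn at random (grey). COL12A1 at -5.59 is the lone chain gene lower by more than 2, and the receptor gene ITGB1 lies at -7.54. COL1A1, COL1A2, COL7A1 and COL23A1 lie between -0.05 and 0.52. COL4A5 at -1.43, COL4A1 at -1.14 and COL6A3 at -1.14 are also lower, from lower means of 3.61, 3.22 and 2.69.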

How the data were processed

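Clariom D arrays measured total RNA of MCF10.AT1 and MCF10.AT1-R, 3 arrays per line. The authors deposited 1 table of log2 values of 138745 probe sets, made by RMA with affy and oligo per the methods, with all 6 arrays and without their filters. Its 2995 control probe sets were used only to judge levels. Array names give the line by their letter, and the methods remove A03. The collagen genes, the other lists and the settings were chosen with earlier results of these data known.

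The main comparison took probe sets with a mean over the 5 arrays above the median (1.88) and an SD above the lowest 25% (0.18), limits the methods do not state. The 51457 probe sets left went through limma 3.58.1 (lmFit, then eBayes; R 4.3.3), p-values were adjusted by Benjamini-Hochberg, and FDR 5% was the threshold. limma estimated 1 SD for all of them. Differences and 95% intervals of all genes came from limma without filters. Genes named with full statistics were chain genes past FDR 5%, or above the negative controls without overlap and with a difference of at least 0.5, and, of the processing genes, those past FDR 5% and the 10 largest differences without overlap among genes above the negative controls in at least 1 line. The 5 arrays limit the precision. The comparisons of A03 were chosen after its values were seen. Alternatives changed the arrays, filters, normalization, variance model, probe set choice and background.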

Additional observations from a re-analysis of the deposited data

How the results depend on the processing

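The count of 1 chain gene past FDR 5% (COL6A3) became 0 with A03 added back, with the low-expression filter alone, with no filter, with probe sets kept by a mean above the 95th percentile of the negative controls, and with values below it raised to it. It became 2 with the trend option (variance following the mean). With the low-expression filter alone and the trend option it was 1, then COL12A1 and not COL6A3. Leaving out each array gave 0 to 1. Over all probe sets the count of 620 became 26 with A03, 182 with the low-expression filter alone, 177 without filters, 1377 with the trend option, 1086 with both, and 271 to 595 leaving out each array (271 without A02, 314 without A01). For the processing and receptor genes the count of 2 became 0 with A03, 1 with the low-expression filter alone, without filters, with the filter at the negative controls and with raised values, 5 with the trend option with or without the filter on invariance, and 1 to 2 leaving out each array.

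The 7 chain genes without overlap became 1 with A03 and 11 to 22 leaving out each array, since fewer arrays overlap less. The median chain difference of 0.04 became -0.011 with A03, 0.0148 with the mean of all probe sets of a symbol, 0.0325 after quantile normalization of the 5 arrays, -0.046 to 0.067 leaving out each array, and -0.15 with raised values, where a gene at the limit on every array reads -0.15 by construction. The 27 chain genes above the negative controls became 8 (MCF10.AT1) and 11 (MCF10.AT1-R) at their 99th percentile, and 13 and 11 against the brightest GC-content background probe set, a limit chosen after seeing the data. Among the 13 genes with full statistics, with A03 added back 4 lower ones turned positive, CRTAP at 0.69, MIA3 at 0.34, P3H1 at 0.29 and PCOLCE2 at 1.06, while COL12A1 reached 2.41 and P3H2 2.19. No cause was tested. No paired analysis was possible because the array names carry no replicate number of the labels. Depth has no counterpart on arrays: 13 chain genes passed the negative controls in neither line, and a difference there was not measurable.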
